A study of Brassica napus with 6 samples.

Results

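Glutaredoxins are small oxidoreductases that use reduced glutathione (GSH, the tripeptide thiol) to reduce disulfides, remove glutathione from proteins or hold iron-sulfur clusters. In plants they fall into classes named after the amino acids of the active site. The CPYC and CGFS classes are shared with other organisms, while the CC class, also called ROXY, belongs to land plants. In Arabidopsis several CC-type members act with TGA transcription factors, and some report the nitrogen status of the shoot to the root or set primary root growth.

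Of 31 Arabidopsis glutaredoxin genes listed, 22 were measured here in roots of oilseed rape (Brassica napus), each by 1 probe that the platform annotation pairs with a single gene. They were 17 of 21 CC-type genes, 5 of 6 CPYC-type genes and 0 of 4 CGFS-type genes. Genes were found by their locus or symbol among 22746 probes of the Arabidopsis ATH1 array, of which 13513 name 1 gene each, 13350 genes in all. The 9 genes whose locus or listed symbol named no such probe were not analysed here. Whether a probe under another name reads these genes was not tested. They are the CC-type genes ROXY3, ROXY5, GRXS7 and GRXS13, the plastid CPYC-type gene GRXC5, and the CGFS-type genes GRXS14, GRXS15, GRXS16 and GRXS17, whose products serve iron-sulfur cluster proteins. Gene names are the Arabidopsis ones, since every probe was designed on that species. Rape often carries several copies of an Arabidopsis gene, and a probe cannot tell these copies, or close family members, apart.

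The 3 GSH-treated samples were roots of plants of cultivar Nourin No.16 whose expanded leaves were painted with 100 mM GSH, 50 µL on each of 3 leaves, over 4 days. The 3 control samples were roots of plants of the same cultivar, 4 weeks old as the treated ones were, with no agent and no recorded brushing, so an effect of GSH cannot be told apart from one of the painted solution. The study asked how leaf-applied GSH alters root gene expression. In whole roots, fewer cells of a type and less RNA per cell cannot be told apart. The labels call the samples biological replicates, and do not say how many plants each holds.

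The deposited values hardly differ between arrays, and this sets the scale of everything that follows. All 6 arrays have a median of 5.84, and a probe typically ranged over only 1.91 millionths of a unit across them. Each array value is therefore given below as millionths of a unit above the lowest of the 6 arrays at that probe, in the order replicate 1, 2 and 3. These are not fold changes. The sources used here do not say how the spread was reduced, and sizes are not comparable between probes. A probe is called dim where its mean signal lies under 5.67, the lower quartile of all probes, which held for 6 of the 22 glutaredoxins, all CC-type. Whether dim probes report expression was not tested.

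No glutaredoxin passed the test for a difference between GSH and control roots. With limma and Benjamini-Hochberg adjustment over all 22746 probes, 0 of the 22 passed the threshold of 0.05, against a background of 0.0% of all probes, and at an unadjusted p under 0.05 there was 1. That is GRXC10, lower in GSH roots. At this level 6.75% of all probes differed, 3.13% higher and 3.61% lower. The smallest adjusted p in the family was 0.513. Means were higher in GSH roots for 11 genes and lower for 11, and 51.9% of all probes had a higher mean. That split rests on the level given to each array: centring arrays on their medians over all probes made it 14 higher and 8 lower (64.1% of all probes higher), and medians over the tested probes made it 17 higher and 5 lower (81.4% of all probes higher). The median moderated t (the difference over its standard error, with the error shared in part between probes) was 0.17 for the family and 0.05 for all probes. It was 0.17 and 0.10 with medians over all probes, and 0.83 and 0.88 with medians over the tested probes, where the order of the 2 turned. Differences were smaller than their standard error at 11 of the 22 genes. By class, 9 CC-type genes had a higher mean and 8 a lower one, with a median t of 0.67, and 2 CPYC-type genes had a higher mean and 3 a lower one, with a median t of -0.22. With medians over all probes the CC-type split was 12 higher and 5 lower (median t 0.26), and the CPYC-type split stayed at 2 and 3 (median t -0.0053). With medians over the tested probes the CC-type split was 13 higher and 4 lower (median t 1.03), and the CPYC-type split turned to 4 higher and 1 lower (median t 0.66). The difference between classes was not tested.

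**Figure D1:**
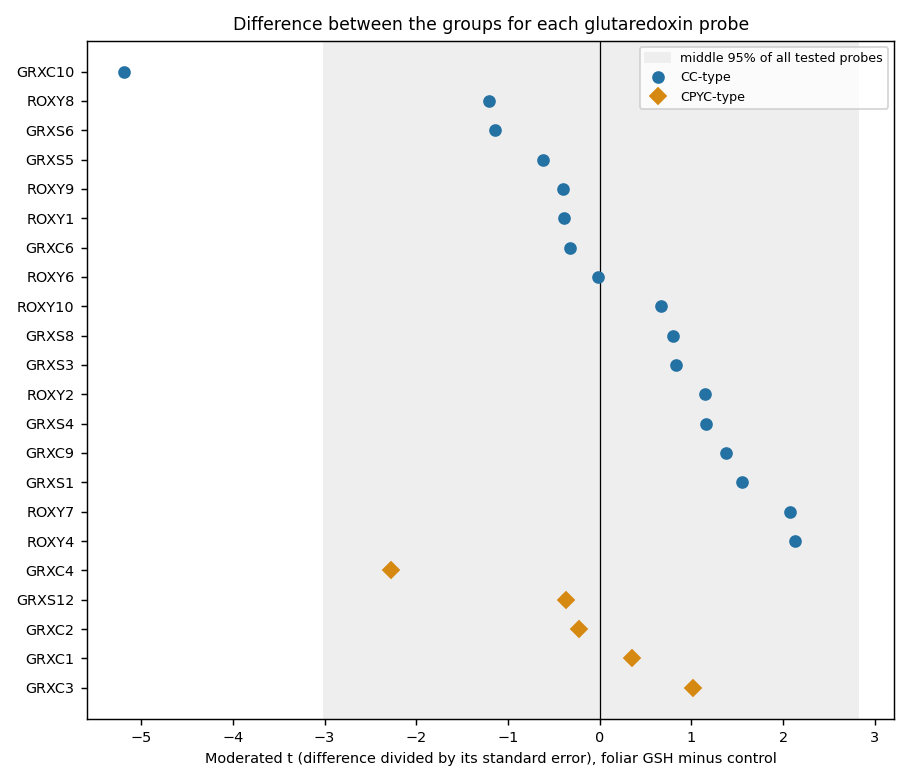
Moderated t of foliar GSH minus control (x axis, no unit) for each measured glutaredoxin (y axis), CC-type as blue circles and CPYC-type as orange diamonds; the grey band runs from -3.01 to 2.81 and holds the middle 95% of all tested probes. GRXC10 is the 1 gene outside the band, on the lower side.

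GRXC10 (AT5G11930), a CC-type gene, is the 1 glutaredoxin at which the groups did not overlap. Its probe, with a mean signal of 5.80, stood at 0, 1.02 and 0.164 millionths in GSH roots, against 4.17, 4.83 and 2.63 millionths in control roots. Every GSH array was lower than every control, with the nearest pair being GSH replicate 2 and control replicate 3. The group means were 0.395 ± 0.549 millionths in GSH roots and 3.88 ± 1.13 millionths in control roots (SD, n = 3 each). The difference was -3.48 millionths (SE 0.671, limma adjusted p = 0.513), with an unadjusted limma p of 0.00387. Over all probes the groups were separated at 11.4%, and GSH lay below control at 5.75%. With arrays centred on their medians over all probes the first share was 4.19%, and GRXC10 was still the 1 separated glutaredoxin, while its limma test still did not pass. In the family 1 of 22 probes was separated in this way, and 0 in the other direction, where 5.63% of all probes were. An exact permutation test of 3 arrays against 3 cannot give a two-sided p under 0.1 at any single probe.

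**Figure D2:**
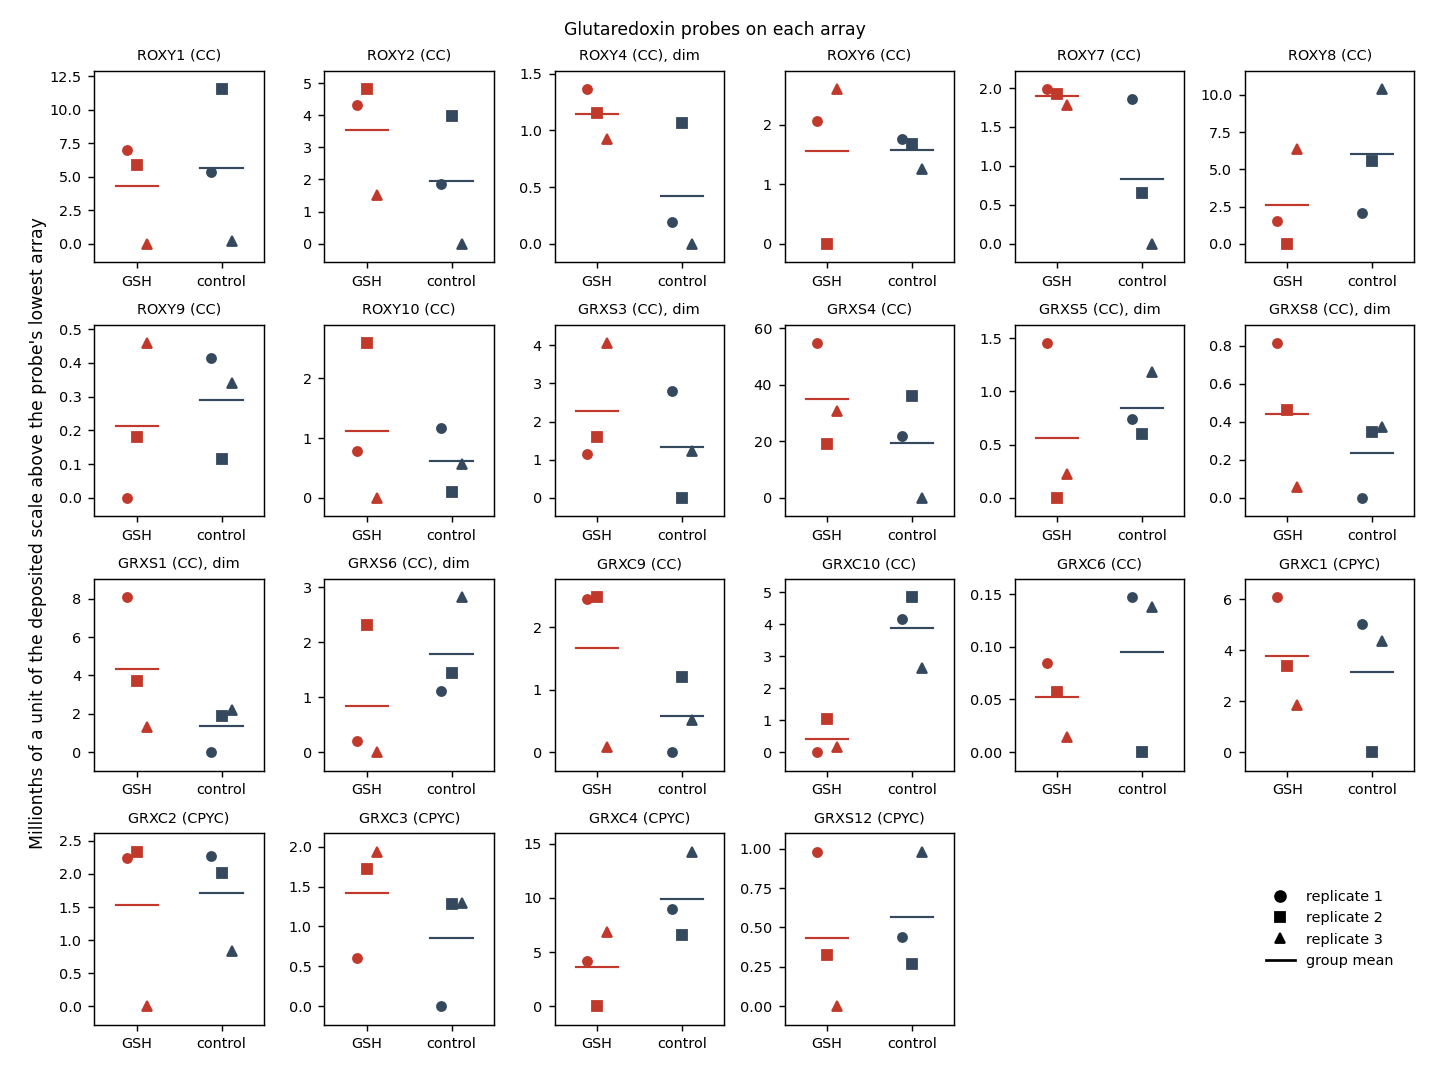
Each panel is 1 glutaredoxin probe, with the 3 GSH arrays (red, left) and the 3 control arrays (dark, right) as millionths of a deposited unit above the lowest array; symbols mark the replicate number and lines the group means, and every panel has its own y axis. Only at GRXC10 do all GSH arrays lie on one side of all controls.

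ROXY6 to ROXY9 are the genes known in Arabidopsis as CEPD1, CEPDL2, CEPDL1 and CEPD2. Their polypeptides are made in shoot phloem and travel to the root, where they raise nitrate uptake. All 4 were measured, none by a dim probe, with 1 mean higher and 3 lower in GSH roots and 0 past the threshold. Both ways of centring the arrays turned this to 3 higher and 1 lower. Of all probes, 64.1% were then higher with medians over all probes and 81.4% with medians over the tested probes. The ROXY7 probe stood at 1.99, 1.92 and 1.78 millionths in GSH roots, against 1.86, 0.648 and 0 millionths in control roots. The GSH arrays lay close together there, and control replicate 1 lay between the values of GSH replicates 2 and 3, so the groups overlap. Their difference was 1.06 millionths (SE 0.512, limma adjusted p = 0.818). At ROXY8 the arrays stood at 1.51, 0 and 6.35 millionths in GSH roots, against 2.06, 5.55 and 10.4 millionths in control roots. GSH replicate 3 was above both control replicates 1 and 2, and the difference was -3.38 millionths (SE 2.81, limma adjusted p = 0.952). ROXY6 and ROXY9 showed no order by group. The ROXY6 probe stood at 2.06, 0 and 2.60 millionths in GSH roots, against 1.77, 1.68 and 1.25 millionths in control roots, and its difference was -0.0153 millionths (SE 0.744). That of ROXY9 stood at 0, 0.180 and 0.458 millionths in GSH roots, against 0.414, 0.116 and 0.339 millionths in control roots, and its difference was -0.0770 millionths (SE 0.190).

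A run of neighbouring CC-type genes, numbered AT4G15660 to AT4G15700, was measured through 4 of its 5 members. In Arabidopsis these genes respond to nitrate and restrain growth of the primary root. Their sequences are alike, so their probes may share signal. GRXS4 (AT4G15680) is the 1 member of the run that is not dim, and its probe had the widest range of any glutaredoxin. It stood at 54.7, 19.2 and 30.9 millionths in GSH roots, against 21.9, 36.2 and 0 millionths in control roots. GSH replicate 1 was the highest array and control replicate 3 the lowest, but control replicate 2 exceeded both other GSH arrays. The difference was 15.6 millionths (SE 13.5, limma adjusted p = 0.961), and it ran from 5.68 without GSH replicate 1 to 24.0 without control replicate 2. The 3 dim members had narrower ranges. GRXS3 (AT4G15700) stood at 1.16, 1.60 and 4.05 millionths in GSH roots, against 2.80, 0 and 1.23 millionths in control roots. The GRXS5 probe (AT4G15690) stood at 1.45, 0 and 0.227 millionths in GSH roots, against 0.737, 0.604 and 1.18 millionths in control roots. For GRXS8 (AT4G15660) the arrays stood at 0.812, 0.460 and 0.0570 millionths in GSH roots, against 0, 0.344 and 0.371 millionths in control roots. All of these overlap, and the differences were 0.925 millionths (SE 1.11) for GRXS3, -0.280 millionths (SE 0.456) for GRXS5 and 0.205 millionths (SE 0.257) for GRXS8. In all, 3 of the 4 measured members had a higher mean in GSH roots and 0 passed the threshold. With arrays centred on their medians over all probes the split stayed at 3 higher and 1 lower (64.1% of all probes higher). With medians over the tested probes all 4 were higher, as were 81.4% of all probes.

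GRXC9 (also GRX480 or ROXY19), which in Arabidopsis is induced by salicylic acid and binds TGA factors, stood at 2.45, 2.47 and 0.0860 millionths in GSH roots, against 0, 1.20 and 0.521 millionths in control roots. GSH replicates 1 and 2 lay above all controls, and replicate 3 lay among them. The difference was 1.1 millionths (SE 0.797, limma adjusted p = 0.926). ROXY4 (GRXC11), a dim probe, stood at 1.36, 1.15 and 0.923 millionths in GSH roots, against 0.190, 1.06 and 0 millionths in control roots. Control replicate 2 lay between GSH replicates 2 and 3, while the other controls were below every GSH array. Its difference of 0.728 millionths (SE 0.342, limma adjusted p = 0.808) had the largest positive moderated t in the family.

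ROXY1 and ROXY2, which in Arabidopsis control petal and anther development with TGA factors, were also read by probes that are not dim. At ROXY1 the arrays stood at 7.04, 5.90 and 0 millionths in GSH roots, against 5.32, 11.5 and 0.206 millionths in control roots. Those of ROXY2 stood at 4.31, 4.81 and 1.51 millionths in GSH roots, against 1.86, 3.97 and 0 millionths in control roots. At both genes replicate 3 was the lowest array of each group, and the groups overlapped. The differences were -1.38 millionths (SE 3.58) for ROXY1 and 1.60 millionths (SE 1.41) for ROXY2.

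The other CC-type genes are less well characterised. GRXS1 (AT1G03020), a dim probe, stood at 8.06, 3.69 and 1.28 millionths in GSH roots, against 0, 1.89 and 2.21 millionths in control roots. Of the GSH arrays, replicate 1 was by far the highest, replicate 2 also lay above all controls and replicate 3 lay among them. The difference was 2.98 millionths (SE 1.92, limma adjusted p = 0.905). The dim GRXS6 probe (AT3G62930) stood at 0.203, 2.31 and 0 millionths in GSH roots, against 1.12, 1.44 and 2.81 millionths in control roots. Its difference was -0.952 millionths (SE 0.830), with GSH replicate 2 above 2 of the 3 controls. GRXS6, ROXY4 and ROXY8 are neighbours on Arabidopsis chromosome 3, and their means differed in both directions, 1 higher and 2 lower. ROXY10 (GRXS2) stood at 0.786, 2.59 and 0 millionths in GSH roots, against 1.18, 0.0960 and 0.560 millionths in control roots, with a difference of 0.513 millionths (SE 0.762). GRXC6 (AT4G33040) had the narrowest range of the family and stood at 0.0850, 0.0570 and 0.0140 millionths in GSH roots, against 0.147, 0 and 0.138 millionths in control roots. The difference at GRXC6, -0.0430 millionths (SE 0.130), is smaller than the 0.121 millionths by which the group means of the array medians differ. The same holds at ROXY6 (-0.0153 millionths) and ROXY9 (-0.0770 millionths). With medians over the tested probes that gap is 0.598 millionths, which exceeds the differences of further genes, among them ROXY10 and GRXC3.

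The CPYC-type genes encode the disulfide-reducing glutaredoxins of the cytosol, secretory pathway and plastid, and none of the 5 measured was dim. GRXC4, a secretory pathway member, stood at 4.13, 0 and 6.85 millionths in GSH roots, against 8.95, 6.56 and 14.3 millionths in control roots. Controls were mostly the higher group, yet GSH replicate 3 exceeded control replicate 2. Its difference of -6.26 millionths (SE 2.76, limma adjusted p = 0.784) had the lowest unadjusted p of the class, 0.0741. GRXC3, also of the secretory pathway, stood at 0.602, 1.73 and 1.94 millionths in GSH roots, against 0, 1.28 and 1.30 millionths in control roots. With a difference of 0.564 millionths (SE 0.557) it lay on the other side of 0. The cytosolic enzymes GRXC1 and GRXC2 had the smallest differences of the class relative to their errors. GRXC1 stood at 6.07, 3.39 and 1.87 millionths in GSH roots, against 5.03, 0 and 4.38 millionths in control roots. The arrays of GRXC2 stood at 2.24, 2.34 and 0 millionths in GSH roots, against 2.27, 2.02 and 0.834 millionths in control roots. Their differences were 0.640 millionths (SE 1.82) for GRXC1 and -0.183 millionths (SE 0.812) for GRXC2, both well within the spread of either group. GRXS12, the plastid member, stood at 0.981, 0.327 and 0 millionths in GSH roots, against 0.440, 0.270 and 0.981 millionths in control roots. GSH replicate 1 and control replicate 3 tied as its highest arrays, and the difference was -0.128 millionths (SE 0.349).

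Across the family no array was always the extreme one. GSH replicate 1 was the highest array at 8 of the 22 genes, and at 23.7% of all probes, the largest share of any array. That count includes GRXS12, the 1 gene where 2 arrays tied. Control replicate 1 was the highest at 1 gene, and at 13.3% of all probes. GSH replicate 3 was the lowest array most often, at 5 genes, and at 16.9% of all probes.

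Leaving out an array makes separation more common at any probe, since 2 arrays are then set against 3. Without GSH replicate 3, the groups no longer overlapped at 9 glutaredoxins, against 23.2% of all probes. GSH was then above control at ROXY2, ROXY4, ROXY7, GRXS8, GRXS1 and GRXC9, and below it at ROXY8, GRXC10 and GRXC4. Over all probes GSH was then above at 12.1% and below at 11.2%. With another array left out, the count of glutaredoxins was a smaller share of the 22 than that of all probes. There were 4 without control replicate 2 (22.2% of all probes), 3 without GSH replicate 1 (22.0%), 3 without GSH replicate 2 (20.6%), 2 without control replicate 1 (19.9%) and 1 without control replicate 3 (20.5%). GRXC10 was separated in all 6 of these settings, as it must be, since it was separated with all arrays. By limma 0 glutaredoxins passed the threshold without any single array. The difference turned sign at 7 genes and turned or moved by over 1.5 times at 20. The exceptions were GRXC10, which ran from -4.11 to -3.01 millionths, and ROXY4, which ran from 0.519 to 1.05 millionths.

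**Figure D3:**
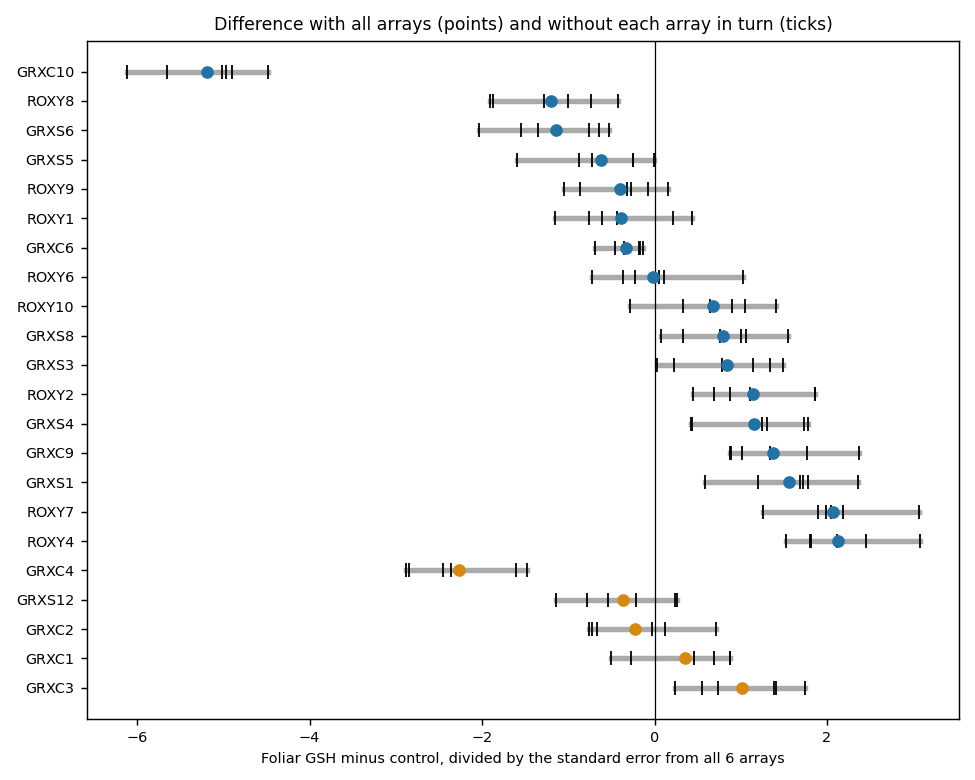
For each glutaredoxin (y axis), the point is the difference of foliar GSH minus control with all arrays and the ticks are the same difference without each of the 6 arrays in turn, all divided by the standard error with all arrays (x axis, no unit); blue is CC-type and orange CPYC-type, and grey bars join the lowest and highest tick. The ticks of 7 genes lie on both sides of 0, while those of GRXC10 stay well below it.

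Genes that work with glutaredoxins were measured too sparsely to describe their pathways, with 5 of 68 listed genes matched and 0 past the threshold. Glutathione reductase regenerates GSH from its oxidised form. Of 14 genes of glutathione synthesis, recycling and breakdown 2 were measured: its cytosolic form GR1, with a difference of 0.0137 millionths (SE 0.260), and its organellar form GR, with a difference of -0.411 millionths (SE 0.676). NTRC, the plastid NADPH-thioredoxin reductase and the 1 measured of 11 thioredoxin system genes, stood at 0.740, 2.11 and 1.42 millionths in GSH roots, against 0.507, 0 and 0.409 millionths in control roots. Every GSH array was above every control there, the difference was 1.12 millionths (SE 0.405, limma adjusted p = 0.713), and the gene had an unadjusted limma p of 0.0415. Over all probes 5.63% were separated in this direction and 6.75% had an unadjusted p under 0.05. CEPH, a root phosphatase that in Arabidopsis acts on the nitrate transporter NRT2.1 downstream of the CEPD polypeptides, was the 1 measured of 9 genes of that pathway. Its difference was -1.97 millionths (SE 1.48, limma adjusted p = 0.935). The scaffold gene ISU1, on which iron-sulfur clusters are built, was the 1 measured of 16 in its list, and it differed by -1.44 millionths (SE 0.770, limma adjusted p = 0.853). Of 10 TGA factors and 8 glutathione peroxidase-like genes, 0 were matched by locus or symbol to a probe paired with 1 gene. As for the other unmatched genes, probes under other names were not searched.

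Tissue markers also gave no call, with adjusted limma p from 0.911 to 0.9999. EXPA7 and EXPA18, expansin genes of root hairs, were the 2 measured of 8 root markers, with mean signals of 6.13 and 5.95 and differences of -27.3 millionths (SE 20.8) and -2.12 millionths (SE 5.12). Of 8 leaf markers 2 were measured, the light-harvesting gene LHCB4.1 with a mean signal of 5.75 and the Rubisco activase gene RCA with 6.04. Their differences were 0.280 millionths (SE 0.186) and -0.0573 millionths (SE 0.148). As signals of different probes cannot be set against each other, these values do not measure how pure the root tissue was.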

How the data were processed

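Root RNA of 3 GSH-treated and 3 control samples was hybridised to single-colour Affymetrix ATH1 arrays. Per the labels' protocols, 100 ng of total RNA gave the labelled cRNA. The authors deposited 1 value per probe and array for 22810 probes, taken as log2 from their range. Their log base, background correction, summary and normalization are not stated in the labels or the file. Of tools, the submitters' processing notes name R 2.7.2. Array medians lay within 0.1, the condition for using the values as deposited.

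After 64 array control probes were left out, 22746 were tested in R 4.3.3 by limma 3.58.1 (functions lmFit and eBayes, no filter on dim probes), adjusted by Benjamini-Hochberg. The prior degrees of freedom were 0.83. Probes paired with several genes (503) or unnamed here (8730) were given no gene. All measured glutaredoxins are named, and of each related list up to 4 genes with the smallest p. Members and lists were chosen with earlier results of these data known. The fit was run on simulated data of independent normal noise, which cannot show how it handles shifts shared across an array. Labels give no scan date or batch. The number of arrays limits the precision. Alternatives were quantile normalization, centred arrays, brighter probes, the replicate block, trended and robust variance, Welch's test, gene means and the omission of each array.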

Additional observations from a re-analysis of the deposited data

How the results depend on the processing

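Centring on the probes tested was added after seeing the data. The count of glutaredoxins past the threshold was 0 in every setting run: quantile normalization, both centrings, brighter probes, the replicate block, each array left out, trended and robust variance, Welch's test and gene means. The lowest adjusted p of a member in any limma setting other than gene means was 0.444, for GRXC4 with the replicate block. Over all probes the count was 0 by limma, with 1535 at an unadjusted p under 0.05, and became 44 under quantile normalization, 15 with arrays centred on their medians over all probes, 4 among probes above the median signal and 1 with the replicate block. It was 0 without single arrays and in the other settings. Quantile normalization left 3 glutaredoxins and 2690 of all probes varying between arrays, because the other probes kept their rank on every array. Glutaredoxins with separated groups numbered 1, and 0 under quantile normalization and among probes above the median, where GRXC10 was not tested or did not vary. They numbered 4 with centring on the tested probes, with ROXY4, GRXS1 and GRXC9 above and GRXC10 below, where 9.94% of all probes were separated, and ran from 1 to 9 without single arrays.

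Of 235 single-gene values (millionths), 23 turned sign. Brighter probes, the replicate block and trended and robust variance cannot alter a difference. Centring added the same 0.121 to every difference with medians over all probes, and 0.598 with medians over the tested probes, so the shift depends on which probes set the median. Neighbouring probe means lie a median of 34.5 apart. The first gave 0.0782 for GRXC6, 0.106 for ROXY6 and 0.0442 for ROXY9. The second gave 0.555 for GRXC6, 0.583 for ROXY6, 0.521 for ROXY9, 0.415 for GRXC2, 0.470 for GRXS12 and 0.318 for GRXS5. Quantile normalization gave -17.5 for GRXC3, where the cause was not tested, and 0 for ROXY9. With 1 array left out at a time, values ran from -0.927 to 1.59 for GRXC1, -0.620 to 0.580 for GRXC2, -0.400 to 0.0903 for GRXS12, -4.12 to 1.54 for ROXY1, -0.218 to 1.07 for ROXY10, -0.538 to 0.761 for ROXY6 and -0.200 to 0.0293 for ROXY9. A further 13 genes kept sign but moved over 1.5 times, among them GRXS4 from 5.68 to 24.0 and GRXC4 from -7.95 to -4.09. The block changed no glutaredoxin call. Deviations from the group means, each probe scaled to its SD, correlated at -0.0188, -0.0181 and 0.103 between arrays of the same number. As 2 of these are under 0.1, the arrays were taken to share only a number. Among all 9 pairs the highest correlation, 0.109, was between GSH replicate 1 and control replicate 2.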
